A study of Mus musculus with 9 samples.

Results

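Gene expression in the jejunum was compared between mice that had received total abdominal irradiation (TAI) 3 days earlier and untreated mice. The comparison used 6 of the 9 libraries of the series and the 12792 of 31685 listed genes (40.4%) that reached 1 FPKM in at least 3 of these 6 mice. FPKM scales the fragments read from a gene to the length of its transcript and to the number of fragments mapped in the library. Of the genes tested, 11057 are annotated as protein coding. The control group held 3 adult wild-type C57BL/6J mice without treatment. The TAI group held 3 adult wild-type C57BL/6J mice whose abdomen was exposed once to 12 Gy of X-rays at 75 cGy/min. According to the methods, irradiated mice were anaesthetised with pentobarbital and those without immunoglobulin were given PBS, and no sham exposure of the control mice is described. Anaesthesia, injection and handling therefore cannot be told apart from the irradiation itself. All 6 mice ate standard chow in a specific-pathogen-free facility, and the labels place them in 1 batch.

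The lining of the small intestine is replaced continuously. Stem cells at the crypt base divide, their daughters divide several times more in the crypt, and the progeny stop cycling and climb the villus as absorptive enterocytes, mucus-secreting goblet cells, hormone-secreting enteroendocrine cells and chemosensory tuft cells, while Paneth cells stay in the crypt base and secrete antimicrobial peptides. Ionising radiation breaks DNA, which activates the transcription factor p53 and stops or kills dividing crypt cells, whereas villus cells no longer divide and persist until they are shed. Many enterocyte genes are switched on or off in order as a cell moves from the crypt to the villus tip. RNA was taken from bulk tissue, so fewer cells of a type and less RNA per cell cannot be told apart in any result that follows.

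The 6 libraries were of like depth, with 17311810 to 17671716 reads assigned to genes in the control mice and 16283431 to 18243637 in the TAI mice. Over the tested genes, log2(FPKM + 1) correlated at 0.938 to 0.966 among control mice, at 0.962 to 0.984 among TAI mice and at 0.851 to 0.92 between the groups. The first principal component held 65.9% of the variance and separated the groups. The labels call the tissue epithelial, whereas the protocol describes jejunal tissue. Epcam, an adhesion molecule of epithelial cells, stood at 1036, 1044 and 870 FPKM in control mice 1, 2 and 3 and at 1303, 1217 and 1512 in TAI mice 1, 2 and 3. Acta2, the actin of smooth muscle, stood at 203, 193 and 266 FPKM in the control mice and at 239, 208 and 304 in the TAI mice, so both groups also held RNA of the muscle wall or of other contractile cells. The median FPKM of the tested genes was lower in the TAI mice (4.34, 4.94 and 4.63) than in the control mice (5.13, 5.84 and 6.8), and the median log2 fold change over all tested genes was -0.24. Setting the library medians equal moved it to 0.03. Genes are said here to rise or fall where the adjusted p (limma, Benjamini-Hochberg) was under 0.05 under both scalings, unless the deposited scaling is named. List counts are given with all 6 mice, and most that differ by more than 1.5 times are also given without single mice or with the replicate block, a term for the number that a control and a TAI mouse share. Counts of 1 to 3 members are the least firm: 26 of 40 such counts moved by more than 1.5 times when 1 mouse was left out. Values of single mice are listed in the order of mouse 1, 2 and 3, and fold changes in log2 are on the log2(FPKM + 1) scale.

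A large part of the transcriptome differed between the groups. At the deposited scaling 1263 genes (9.87% of those tested) were higher and 3502 (27.4%) lower in the TAI group, and 26.5% of all calls were thus higher. With library medians set equal, 2233 genes (17.5%) were higher and 1852 (14.5%) lower, and 54.7% of all calls were higher. No gene was called in opposite directions by the scalings, and 1263 and 1852 genes (9.87% and 14.5%) passed in both. The list counts that follow are to be read beside these shares. The 3 TAI mice all lay above the 3 control mice for 1898 genes (14.8%) and all below them for 4937 (38.6%). Of the genes that rose, 529 did so at least 2-fold, 94 at least 4-fold and 26 at least 8-fold. Of the 3502 genes lower at the deposited scaling, 1173 were so at least 2-fold, 96 at least 4-fold and 14 at least 8-fold. The direction varied with abundance: among the 144 genes with a mean of at least 300 FPKM, 43 were higher and 35 lower, with a median log2 fold change of 0.20, whereas the medians of all lower bins of abundance lay between -0.32 and -0.14. The 10 most abundant genes of each mouse held 19.3%, 15% and 14.8% of the summed FPKM in the control mice and 22%, 20.4% and 22.8% in the TAI mice. Leaving out TAI mouse 1 left 669 higher and 1506 lower genes, and leaving out control mouse 2 left 947 and 2161.

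**Figure D1:**
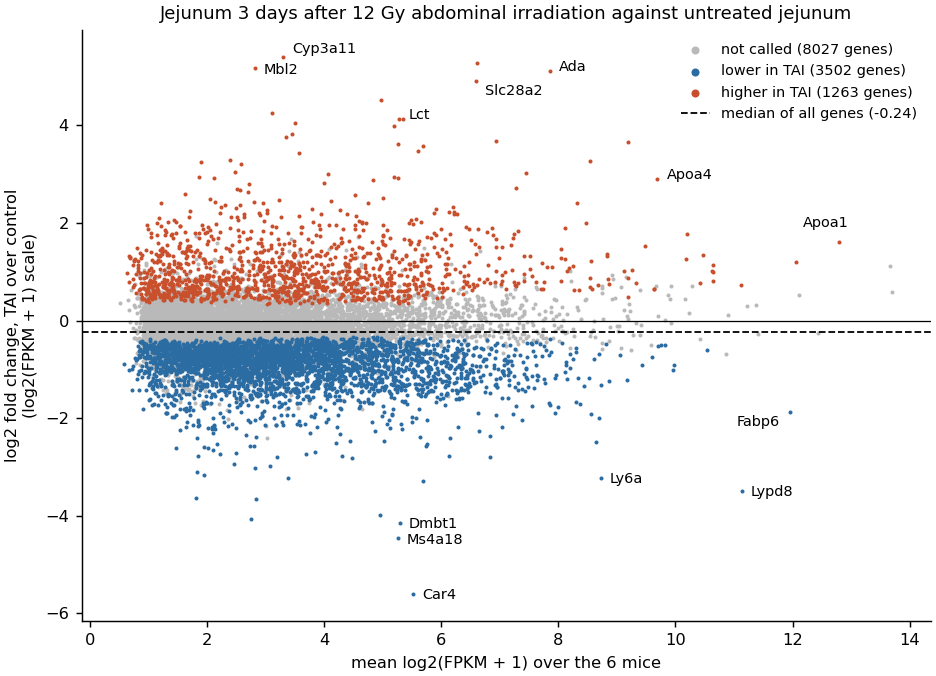
Each point is 1 of the 12792 tested genes, with its mean log2(FPKM + 1) over the 6 mice on the x axis and its log2 fold change, TAI over control, on the y axis. Blue and red points are the 3502 lower and 1263 higher genes at the deposited scaling, grey points the genes not called, and the dashed line is the median of all tested genes (-0.24). The falls reach -5.60 (Car4) and the rises 5.40 (Cyp3a11).

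The largest fall was that of Car4 (chr11:84957786-84966044, GRCm38), a carbonic anhydrase of the enterocyte surface that interconverts carbon dioxide and bicarbonate. It stood at 356, 309 and 291 FPKM in the control mice and at 4.87, 4.62 and 7.64 in the TAI mice. Ms4a18 (chr19:10997025-11018031), a membrane protein of the MS4A family, went from 182, 177 and 176 FPKM to 8.48, 11.3 and 3.7 (log2 fold change -4.46 ± 0.33 SE, adjusted p = 7.84e-04). Dmbt1 (chr7:131032053-131121630), a mucosal glycoprotein that binds bacteria and whose gene overlaps Fgfr2 on the other strand, went from 207, 126 and 166 FPKM to 10.8, 10.5 and 4.92 (-4.14 ± 0.31, adjusted p = 7.84e-04). In each of these genes the groups were far apart and every TAI mouse lay below every control mouse. Lypd8, a surface protein that keeps flagellated bacteria away from the colonic lining, was among the most abundant transcripts of the control jejunum at 8041, 8284 and 6348 FPKM and stood at 768, 1031 and 374 FPKM in the TAI mice (10.4-fold lower mean). Ly6a, known as Sca-1, went from 1345, 1214 and 1333 FPKM to 138, 196 and 96.9. Tfrc, the transferrin receptor that dividing cells use to take up iron, stood at 21.1, 43.1 and 32.6 FPKM in the control mice and at 2.03, 3.02 and 2.3 in the TAI mice (13.2-fold lower mean).

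Enzymes of detoxification also stood among the largest falls. Gstm3, a glutathione transferase, was at 136, 161 and 83.4 FPKM in the control mice and at 5.12, 4.08 and 13.9 in the TAI mice. The aldo-keto reductases Akr1c13 and Akr1c19 neighbour each other on chromosome 13 and fell to mean levels 10.2-fold and 25.4-fold lower. Akr1c19 went from 18.3, 39 and 19.8 FPKM to 0.882, 0.896 and 1.26. Pycard, the adaptor that joins inflammasome sensors to caspase-1, fell 11.4-fold in mean FPKM, and its gene overlaps an annotated transcript on the other strand. Tex12 fell from 11.6, 7.46 and 9.61 FPKM to 0.172, 0.363 and 0.108, but the gene overlaps Il18 on the opposite strand and Il18 fell too, so the reads of the pair cannot be told apart without the strand. The non-coding genes Gm45912, Gm34084 and Mir1938 completed the largest falls. Mir1938 was read 15 to 24 times in each control mouse and listed at 0 in all 3 TAI mice, and it lies within Ifrd1 on the same strand.

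The largest rises included a cytochrome, enzymes and transporters of purines, and secreted proteins. Cyp3a11 (chr5:145854426-145879964), a cytochrome P450 that oxidises drugs and bile acids, was nearly silent in the control mice at 0.237, 1.04 and 0.363 FPKM and reached 71, 61.5 and 56.8 FPKM in the TAI mice (log2 fold change 5.40 ± 0.21 SE, adjusted p = 2.44e-04). Ada (chr2:163726584-163750239), adenosine deaminase, went from 52.6, 23.2 and 46.3 FPKM to 1444, 795 and 2233. Slc28a2 (chr2:122426477-122461137), a sodium-coupled transporter of purine nucleosides, went from 18.9, 9.76 and 24.8 FPKM to 603, 342 and 724. The TAI mice exceeded the control mice at least 10-fold in these genes whichever mice are set side by side. Mbl2, the mannose-binding lectin that starts the lectin pathway of complement, had 1 to 5 reads in each control mouse and stood at 41.6, 89.5 and 18.3 FPKM in the TAI mice. Selenop, which carries selenium and whose gene overlaps Ccdc152 on the other strand, had the highest mean of these genes, at 212, 155 and 131 FPKM in the control mice and 2153, 1880 and 2197 in the TAI mice. Mep1a, a metalloprotease of the brush border, rose from 38.6, 34.3 and 27.8 FPKM to 467, 342 and 528, and Slc23a4, a nucleobase transporter, from 12.1, 5.88 and 9.2 to 179, 138 and 201. Susd2 and 2010109I03Rik rose 18.1-fold and 40.7-fold in mean FPKM. The mitochondrial transfer RNA mt-Te rose from 1 to 4 reads per mouse to 40 to 45 reads.

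A few genes were near 0 in 1 group. Chosen after their values were seen, 7 genes stood at 1 FPKM or more in every TAI mouse and under 0.1 FPKM in every control mouse, and 3 genes showed the reverse. The former included the cytochromes Cyp3a44 (0.0587, 0.0288 and 0.0294 FPKM in the control mice against 2.17, 3.72 and 2.68 in the TAI mice) and Cyp2c66 (0.0591, 0.0291 and 0.0594 against 1.98, 2.78 and 1.24). Rdh16f2, a retinol dehydrogenase family member, stood at 0.0455, 0.0447 and 0 FPKM against 1.57, 1.55 and 1.43. The others were 1700007K13Rik, with 21 to 33 reads per TAI mouse, Gm14086, which lies within Slc28a2, with 6 to 14, Gm10813 with 2 to 3 and Ighd2-3 with 1 to 2, and the last 2 are too few to rest anything on. In the reverse direction, listed at 0 in the TAI mice, Gm47791 had 8 to 23 reads per control mouse, Snord32a, which lies within Rpl13a, had 2 to 7, and Mir1938 had 15 to 24.

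Most genes of mitosis and many of DNA replication fell. Of 42 genes of mitosis and the G2/M phase, 29 reached the level tested. Of these, 28 were lower in the TAI group at the deposited scaling (27 also with medians equal) and 1 was higher, with a median log2 fold change of -1.71 (-1.47 relative to the median of all genes). Of 39 genes of DNA replication and nucleotide supply, 30 were tested, 22 were lower (18 in both scalings) and none was higher (median -1.04, or -0.80 relative to all genes). Among all tested genes 27.4% were lower. A gene can reach the level tested through the mice of 1 group alone, and its direction is then tied to the filter, here and in other lists. Ccnb1 is such a gene, at 1.81, 6.57 and 6.23 FPKM in the control mice and 0.346, 0.422 and 0.312 in the TAI mice. Other named genes that passed through the control mice alone include Cdk1, Kif11, Tex12, Bmp3, Ccl28 and Ccr2. Those that passed through the TAI mice alone include Psrc1, Slc46a1, Gfap and Zbtb16. With no filter, 31 mitosis genes were lower and 1 higher, and 10 replication genes were lower and 0 higher. The replication count depended on single mice, with 4 lower genes without TAI mouse 1, 6 without control mouse 2, and 13, 12 and 14 without TAI mouse 2, TAI mouse 3 and control mouse 3. Without single mice, the mitosis count stayed between 23 and 28. Mki67, a nuclear protein of all cycling cells, stood at 5.62, 12.7 and 12.6 FPKM in the control mice and at 0.789, 1.05 and 0.774 in the TAI mice (log2 fold change -2.52 ± 0.29 SE, adjusted p = 0.00195). Top2a, the topoisomerase that untangles sister chromatids, stood at 3.9, 12.3 and 12.3 FPKM against 0.803, 1.45 and 0.632 (-2.30 ± 0.40, adjusted p = 0.00677). Control mouse 1 had the lowest levels of the 3 control mice in these genes, yet it remained above every TAI mouse. The cyclins that drive entry into mitosis also fell: the mean of Ccnb1 was 13.5-fold lower, that of Ccnb2 15.5-fold and that of Ccna2 14.4-fold. Birc5, the survivin subunit of the complex that positions chromosomes, went from 8.39, 19.2 and 14.7 FPKM to 0.944, 1.46 and 1.24.

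The median change of the replication genes was the smaller one, and the difference between the lists was not tested. Rrm2, the regulated subunit of ribonucleotide reductase, stood at 5.52, 14.7 and 13.5 FPKM in the control mice and at 1.66, 2.66 and 2.06 in the TAI mice, a 5.28-fold lower mean. Dut, which removes dUTP from the nucleotide pool, was 4.75-fold lower. Pcna, the sliding clamp of DNA polymerases, remained the most abundant, with 25.1, 48.1 and 44.3 FPKM against 16.9, 20.9 and 17.5 (a 2.12-fold lower mean, adjusted p = 0.0203, or up to 0.076 without control mice 2 or 3 or TAI mice 1 or 3). Mcm5, a subunit of the replicative helicase, fell 6.51-fold in mean FPKM (adjusted p = 0.0187, or up to 0.072 without control mice 2 or 3 or TAI mouse 1), while Mcm2 of the same ring was lower at the deposited scaling (adjusted p = 0.0435) and not with medians equal (0.0509), and reached 0.13 without control mice 2 or 3 or TAI mice 1, 2 or 3. Psrc1, which binds the mitotic spindle and is also induced by p53, was the exception among the mitotic genes and rose from 0.342, 0.505 and 0.618 FPKM to 3.75, 6.24 and 2.26. It reached the level tested through the TAI mice alone, so its direction is tied to the filter. The mitosis list held 0.0278%, 0.0756% and 0.0685% of the summed FPKM in the control mice and 0.00756%, 0.0118% and 0.00688% in the TAI mice (exact permutation test, p = 0.10, the smallest that 3 against 3 mice allow).

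Short sequences known from cell cycle promoters were looked for in these lists, whether or not a member fell. In windows of RefSeq (GRCm38.p6) that run from 250 bases before a transcription start to 50 after it, the cell cycle homology region (CHR, letters TTTGAA on either strand), an element known to restrict transcription to G2 and M phase, was present for 25 of the 35 mitosis genes with a promoter in the table (71.4%). It was present for 14.5% of the tested genes with a promoter, for 20.2% of all genes of the table and for 4 of 31 replication genes. Within the mitosis list it was present for 16 of 24 genes called lower (66.7%) and for 9 of 10 genes too low to be tested (90%), and not for Psrc1, which rose. A set of E2F sites (TTTGGCGC, TTTCCCGC or TTTCGCGC on either strand), which bind the factors that switch on S-phase genes, was present for 12 of 31 replication genes (38.7%), against 2 of 35 mitosis genes and 3.79% of the tested genes. Within the replication list the E2F letters were present for 5 of 19 genes called lower (26.3%), 3 of 6 tested and not called (50%) and 4 of 6 not tested (66.7%), so they marked the list and not the genes of it that were called lower. A match is a description of letters and not evidence of binding. The following 120-base stretches end at the base before the start site, are read 5′ to 3′ on the strand of the gene and show the matched letters in capitals, the CHR in the first 5 genes and E2F sites in the last 2. They were chosen after the matches were known.
Top2a, chr11:99024190-99024309, minus strand: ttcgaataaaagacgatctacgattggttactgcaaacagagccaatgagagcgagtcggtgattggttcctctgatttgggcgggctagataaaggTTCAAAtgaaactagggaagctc
Cdk1, chr10:69352913-69353032, minus strand: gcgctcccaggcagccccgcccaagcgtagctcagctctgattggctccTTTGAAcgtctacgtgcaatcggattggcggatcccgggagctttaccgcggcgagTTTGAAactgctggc
Ube2c, chr2:164769809-164769928, plus strand: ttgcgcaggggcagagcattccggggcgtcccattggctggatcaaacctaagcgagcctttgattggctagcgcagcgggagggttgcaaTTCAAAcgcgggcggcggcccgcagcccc
Cdc20, chr4:118437344-118437463, minus strand: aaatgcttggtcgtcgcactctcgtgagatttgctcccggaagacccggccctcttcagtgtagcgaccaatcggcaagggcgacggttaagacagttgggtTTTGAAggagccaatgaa
Kif11, chr19:37376262-37376381, plus strand: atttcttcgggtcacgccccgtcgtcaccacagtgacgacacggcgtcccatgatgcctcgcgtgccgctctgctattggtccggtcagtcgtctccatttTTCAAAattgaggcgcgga
Mcm6, chr1:128359706-128359825, minus strand: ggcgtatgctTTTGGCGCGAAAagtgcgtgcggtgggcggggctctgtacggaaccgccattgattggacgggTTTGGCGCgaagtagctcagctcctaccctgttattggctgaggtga
Rfc3, chr5:151651209-151651328, minus strand: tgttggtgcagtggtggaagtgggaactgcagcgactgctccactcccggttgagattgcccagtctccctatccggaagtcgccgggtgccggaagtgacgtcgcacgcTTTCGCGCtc
The genes with a CHR shown here fell: Cdk1, the kinase of mitotic entry, from 2.96, 8.1 and 6.37 FPKM to 0.438, 0.722 and 0.455, Ube2c, which marks cyclins for destruction, from 8.1, 22.5 and 18.5 to 1.55, 3 and 1.01, Cdc20, its partner, from 4.44, 16.7 and 13.3 to 1.31, 1.71 and 1.7, and the spindle motor Kif11 from 1.36, 4.04 and 3.68 to 0.211, 0.469 and 0.279. Of the E2F pair, the helicase subunit Mcm6 fell from 4.49, 11.3 and 14.1 FPKM to 1.49, 2.55 and 2.64 (adjusted p = 0.0156, or up to 0.063 without control mouse 2 or TAI mouse 1). The clamp loader subunit Rfc3, at 1.78, 3.45 and 4.24 FPKM against 1.57, 2.06 and 1.72, was not called (adjusted p = 0.126).

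A part of the known p53 targets rose. Of 32 tested, 14 did (9 without control mouse 2 or without TAI mouse 1), against 9.87% of all genes, and 2 were lower at the deposited scaling only, with a median log2 fold change of 0.55 (0.79 relative to all genes). Phlda3, which restrains the kinase Akt, stood at 2.21, 2.47 and 2.37 FPKM in the control mice and at 15.7, 21 and 14.4 in the TAI mice (2.41 ± 0.16, adjusted p = 6.99e-04). Pmaip1, the BH3-only death protein Noxa, stood at 48.7, 49.2 and 39.1 FPKM against 175, 138 and 198 (1.87 ± 0.17, adjusted p = 0.00113). Btg2, an antiproliferative gene, stood at 22.4, 29 and 36.7 FPKM against 86.1, 96.6 and 111 (1.72 ± 0.20, adjusted p = 0.00188). In all 3 genes the groups were well separated. Mdm2, which tags p53 for degradation and is itself a p53 target, rose 1.52-fold in mean FPKM (adjusted p = 0.0359, or up to 0.11 without control mice 1, 2 or 3 or TAI mice 1 or 2). Cdkn1a, the cell cycle inhibitor p21, was already abundant in untreated jejunum at 118, 120 and 85.2 FPKM and stood at 132, 126 and 129 in the TAI mice, a difference that did not pass the test (adjusted p = 0.214). Plk3 and Tigar were lower at the deposited scaling (adjusted p = 0.0184 and 0.0263) and not with medians equal (0.264 and 0.103), and the former reached 0.081 without control mouse 2 or TAI mice 1 or 2 and the latter 0.11 without control mice 2 or 3 or TAI mice 1 or 3. The list held between 0.155% and 0.161% of the summed FPKM in the control mice and between 0.24% and 0.244% in the TAI mice.

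**Figure D2:**
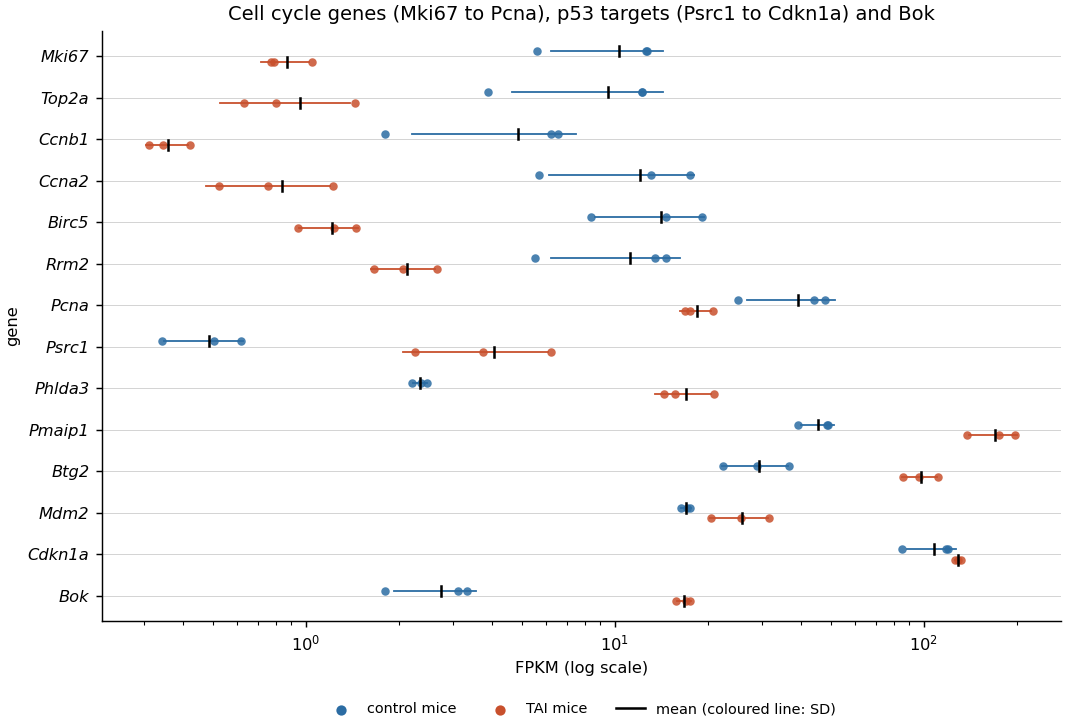
FPKM of single mice on a log axis for 7 cell cycle genes (Mki67 to Pcna), 6 p53 targets (Psrc1 to Cdkn1a) and Bok, with control mice in blue, TAI mice in red, the mean as a black bar and the SD as a coloured line. The groups are apart in every gene shown, least so in Cdkn1a, where the highest control mouse stands at 120 and the lowest TAI mouse at 126 FPKM.

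Repair and cell death genes were mixed. Of 14 tested genes of DNA break repair, 5 were lower (35.7%, against 27.4% of all genes, and 3 in both scalings) and none was higher. The count was 12 without control mouse 1, 9 with the replicate block, 2 without TAI mouse 1 and 3 without any other mouse. H2afx, the histone variant phosphorylated at breaks, went from 14.3, 32.1 and 26.4 FPKM to 4.85, 4.35 and 4.51. Of 16 tested BCL2 family genes 3 rose (18.8%, against 9.87% of all genes), and 2 were lower at the deposited scaling only (12.5%, against 27.4%). The rises lay on both sides of the balance: the pro-apoptotic Bok went from 1.81, 3.11 and 3.33 FPKM to 15.8, 17 and 17.5, Pmaip1 is given above, and the anti-apoptotic Bcl2l1 went from 11.6, 8.75 and 10.7 FPKM to 26.4, 22 and 23.2 (1.14 ± 0.14, adjusted p = 0.00235). The pro-apoptotic Bbc3 (Puma) had 1.19, 0.906 and 1.77 FPKM in the control mice and 1.68, 2.72 and 2.32 in the TAI mice (adjusted p = 0.0848).

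The parts of the inflammasome, which senses danger and activates caspase-1, did not move in 1 direction. Of 18 tested genes of pyroptosis and necroptosis, 3 rose (5 with the replicate block, 1 without control mouse 2 or 3 or TAI mouse 1 or 2) and 7 were lower (5 in both scalings). Gsdmd, the pore-forming executor of pyroptosis, rose from 172, 115 and 134 FPKM to 332, 324 and 296 (adjusted p = 0.00386). Casp1, which cleaves it, fell from 72.2, 79.2 and 65.7 FPKM to 30.9, 40 and 19.5 (adjusted p = 0.00906). The sensor Nlrp6 fell from 61.6, 68.7 and 60.4 FPKM to 11.8, 14.8 and 10.8, and the epithelial cytokine Il18 from 291, 208 and 170 to 45.1, 37.5 and 52.3. The adaptor Pycard stood at 17.5, 24.9 and 26.3 FPKM in the control mice and at 1.84, 2.38 and 1.83 in the TAI mice. Nlrc4, another sensor, rose from 19.2, 18 and 16.2 FPKM to 25.9, 28.2 and 23.4 (adjusted p = 0.0195, or up to 0.08 without control mice 2 or 3 or TAI mice 1 or 2).

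Few stem cell genes were called, and the balance of directions depended on the scaling. Of 28 listed genes of the crypt base 19 could be tested, and 3 rose and 3 were lower (1 in both scalings), with a median log2 fold change of 0.30 (0.54 relative to all genes). With medians equal 6 were higher and 1 lower. Lgr5, the receptor that defines crypt base stem cells, was below the level tested in both groups, at 0.583, 0.981 and 0.371 FPKM in the control mice and 0.523, 0.921 and 0.422 in the TAI mice. Olfm4, a secreted protein of the same cells, varied widely among control mice (8.39, 61.4 and 12.8 FPKM) and stood at 1.52, 2.8 and 0.555 in the TAI mice (adjusted p = 0.0161, or up to 0.055 without TAI mice 1 or 3). Axin2, a feedback target of Wnt signalling, rose from 8.9, 9.93 and 7.34 FPKM to 19.8, 14.6 and 13.9 (adjusted p = 0.0133, or 0.052 without TAI mouse 1). Sox9, a crypt transcription factor, rose from 1.2, 2.91 and 1.7 FPKM to 4.98, 7.72 and 3.25 (adjusted p = 0.0343, or up to 0.098 without control mice 1 or 3 or TAI mice 1 or 2). The Wnt target Sp5 stood at 1.18, 0.943 and 0.88 FPKM against 2.17, 1.81 and 2.27 (adjusted p = 0.0137, or 0.063 without TAI mouse 1). All 4 calls were thus lost without TAI mouse 1.

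Genes of regenerating and fetal-like epithelium split. Of 22 tested, 6 rose (3 without control mouse 2, TAI mouse 1 or TAI mouse 2) and 5 were lower (4 in both scalings). The matricellular genes Ccn1 and Ccn2, targets of the growth regulator YAP, rose: Ccn1 from 1.31, 1.96 and 1.37 FPKM to 7.14, 7.79 and 6.68, and Ccn2 from 1.19, 1.36 and 1.33 to 4.94, 7.1 and 6.53. Il33, an alarmin, stood at 10.3, 9.61 and 9.79 FPKM against 40, 64.5 and 15.2 (adjusted p = 0.028, or up to 0.094 without control mice 1, 2 or 3 or TAI mice 1 or 2). The surface proteins Ly6a and Ly6d fell, the latter from 458, 115 and 324 FPKM to 51.5, 44.7 and 51.6 (adjusted p = 0.00964). Clu, which marks revival stem cells, spread widely within both groups, at 16.5, 2.95 and 113 FPKM against 9.08, 14.3 and 86.3 (adjusted p = 0.883).

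Several receptors of the EGF family rose. Of 9 tested genes of the family, 4 rose and 1 was lower at the deposited scaling only. Egfr stood at 1.92, 2.32 and 1.82 FPKM in the control mice and at 8.32, 7.88 and 6.18 in the TAI mice (1.48 ± 0.15, adjusted p = 0.00141). Erbb3, the partner receptor that binds neuregulins, stood at 22.9, 21.3 and 19 FPKM against 95.8, 94.2 and 82.9 (2.06 ± 0.12, adjusted p = 5.13e-04), and Erbb2 at 13, 11.7 and 11.5 against 22.9, 21.8 and 23.7 (0.87 ± 0.11, adjusted p = 0.00248). The ligand amphiregulin, Areg, went the other way at the deposited scaling, from 136, 90.3 and 97 FPKM to 53.1, 62.6 and 48.5 (adjusted p = 0.0098, or 0.113 with medians equal), and Ereg was not called (adjusted p = 0.227). Of 13 tested genes of the Wnt and BMP niche 2 rose (1 with the replicate block), among them Grem1, a stromal BMP antagonist, from 18, 25 and 37.6 FPKM to 59.7, 75.2 and 62.4 (adjusted p = 0.00938). Of 7 tested Notch pathway genes 2 rose, among them the ligand Dll1, from 10, 9.46 and 9.5 FPKM to 19.6, 18.6 and 15.9 (adjusted p = 0.00385).

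Among secretory cells, only 2 of 19 tested Paneth cell genes passed the test, although the median log2 fold change of the list was 0.71. Mouse 2 of both groups stood apart in these genes. The count was 10 without control mouse 2 and 5 with the replicate block. Lyz1, the Paneth cell lysozyme, had 269, 1108 and 252 FPKM in the control mice and 476, 1240 and 528 in the TAI mice (0.68 ± 0.64, adjusted p = 0.424). The list held 0.434%, 2.29% and 0.44% of the summed FPKM in the control mice and 0.866%, 2.25% and 1.12% in the TAI mice (exact permutation test, p = 0.60). The α-defensins are near-identical copies, so reads may be split among them. The genes that rose were Pnliprp2, a lipase, from 4.87, 10.5 and 6.36 FPKM to 26, 16.4 and 29.1, and Pla2g2a, from 6.63, 16.1 and 7.22 to 21.7, 44.1 and 17.6 (adjusted p = 0.0391, or up to 0.11 without control mice 1 or 3 or TAI mice 1 or 2). Pla2g2a is annotated as a polymorphic pseudogene, so more of its transcript does not show more of a working phospholipase.

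Goblet cell genes moved in both directions. Of 16 tested, 4 rose (2 without control mouse 2 or any 1 of the TAI mice) and 6 were lower, of which 1 was so in both scalings (3 lower without control mouse 2 and 2 without TAI mouse 1). The shares were 25% and 37.5%, against 9.87% and 27.4% over all genes. The median log2 fold change was -0.24, as over all genes. Muc2, the gel-forming mucin, rose from 85.6, 88.8 and 68.6 FPKM to 138, 174 and 131 (adjusted p = 0.00904), and Fcgbp, a mucus protein bound to it, from 119, 138 and 92.8 to 286, 345 and 245 (adjusted p = 0.00418). The bacteria-binding lectin Zg16 stood at 1453, 1192 and 1018 FPKM against 1858, 2260 and 2286 (adjusted p = 0.0243, or up to 0.077 without control mouse 2 or TAI mice 1, 2 or 3). Agr2, the disulphide isomerase of the endoplasmic reticulum that folds Muc2, fell from 283, 344 and 235 FPKM to 72.2, 127 and 65.3 (-1.74 ± 0.28, adjusted p = 0.00491). The list as a whole held 0.797% ± 0.109 (SD, n = 3) of the summed FPKM in the control group and 1.16% ± 0.143 in the TAI group.

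Few hormone genes were called at the deposited scaling, at shares near or below those over all genes. Of 16 tested enteroendocrine genes 2 rose (12.5%, against 9.87% of all genes, and 4 with the replicate block). Another 3 were lower (18.8%, against 27.4%, and 2 in both scalings). With medians equal 7 were higher and 2 lower. Chga, chromogranin A of secretory granules, fell from 38.7, 33.1 and 33.3 FPKM to 8.7, 11 and 12, and Cck, the hormone that empties the gallbladder, from 5.2, 4.99 and 3.54 to 1.21, 2.16 and 0.672. Sst, somatostatin, rose from 9.1, 10.3 and 6.41 FPKM to 18.9, 29.6 and 25.3 (1.42 ± 0.22, adjusted p = 0.00443), and the prohormone protease Pcsk1 from 1.07, 0.959 and 1.29 to 2.63, 3.11 and 2.51. The groups did not overlap in these 4 genes. Of 8 tested tuft cell genes 2 rose (1 with the replicate block), among them Ltc4s, the leukotriene C4 synthase, from 0.454, 1.23 and 0.513 FPKM to 2.3, 2.48 and 3.84 (adjusted p = 0.00969), while the channel Trpm5 stood at 1.31, 1.72 and 1.14 against 2.3, 1.75 and 2.2 (adjusted p = 0.0991).

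Genes of the villus tip had the highest median of the 48 lists. The lists were written with earlier results of these data known, so this rank is a description and not independent support. Of 15 listed genes, all tested, 11 rose and 2 fell, with a median log2 fold change of 1.32 (1.57 relative to all genes). Several of the risers act in 1 pathway, the handling of extracellular purines: Nt5e (CD73) makes adenosine from AMP, Ada converts it to inosine and Slc28a2 takes up purine nucleosides. Nt5e stood at 1.54, 1.29 and 2.69 FPKM in the control mice and at 51, 24.7 and 72.7 in the TAI mice (4.05 ± 0.39, adjusted p = 0.00124). Enpp3, which cleaves extracellular nucleotides, stood at 9.19, 4.27 and 4.08 FPKM against 173, 133 and 144 (4.53 ± 0.28, adjusted p = 5.13e-04). Among TAI mice, mouse 2 had the lowest level of Ada, Slc28a2, Nt5e and Enpp3. The falls were Dmbt1 and Ms4a18, which stood among the largest of all genes, so the list did not rise as a block. It held 1.35%, 0.962% and 0.901% of the summed FPKM in the control mice and 3.06%, 2.31% and 2.55% in the TAI mice.

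Many enzymes and structural proteins of the brush border rose. Of 20 tested, 10 rose (6 without TAI mouse 1), 9 were not called and 1 was lower at the deposited scaling only, with a median log2 fold change of 0.67. Lct, lactase, stood at 6.84, 16.6 and 4.82 FPKM in the control mice and at 190, 210 and 106 in the TAI mice (4.13 ± 0.44, adjusted p = 0.00151). Treh, trehalase, stood at 12.9, 23.6 and 8.88 FPKM against 189, 174 and 171 (3.57 ± 0.31, adjusted p = 9.43e-04). Sis, sucrase-isomaltase, which digests the other dietary disaccharides, moved the other way, from 375, 510 and 257 FPKM to 189, 196 and 129, but passed only at the deposited scaling (adjusted p = 0.0223, or 0.134 with medians equal and up to 0.064 without control mice 1 or 2 or TAI mice 1 or 3). At the deposited scaling, the disaccharidases of 1 membrane were thus unequal in direction. Alpi, intestinal alkaline phosphatase, rose from 215, 154 and 117 FPKM to 489, 355 and 480, and Mme, neprilysin, from 14.6, 13.8 and 9.16 to 46.6, 39.4 and 43.7. Anpep, aminopeptidase N and 1 of the 10 most abundant transcripts, stood at 2922, 2399 and 1909 FPKM against 3227, 2364 and 3350 and was not called (adjusted p = 0.372).

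Transport of sugar, peptides and amino acids rose in part, with 7 of 20 tested genes higher (3 without TAI mouse 1) and 3 lower (1 in both scalings). Slc15a1 (PepT1), the uptake route of di- and tripeptides, rose from 103, 81.2 and 61.6 FPKM to 194, 152 and 261, and the proton-coupled amino acid transporter Slc36a1 from 13.8, 13.7 and 10.1 to 37.2, 33.6 and 37.5. G6pc, the last enzyme of glucose release, rose from 2.41, 6.28 and 1.56 FPKM to 14.8, 22.3 and 28.7 (2.47 ± 0.41, adjusted p = 0.00553). The glucose transporter Slc5a1 (SGLT1) stood at 442, 371 and 267 FPKM against 549, 517 and 503 (adjusted p = 0.0681). Slc1a1, a glutamate transporter, fell from 7.75, 9.43 and 8.53 FPKM to 2.69, 3.09 and 3.01.

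Genes of lipid absorption took a larger share of the RNA after TAI. Of 27 tested genes of lipid absorption and chylomicrons 12 rose (6 without TAI mouse 1) and 2 were lower (1 in both scalings), and the list went from 5.77%, 4.6% and 3.71% of the summed FPKM in the control mice to 11.4%, 8.48% and 13.9% in the TAI mice. The apolipoproteins of chylomicrons led the list. Apoa4 rose from 435, 230 and 271 FPKM to 2370, 2055 and 2404 (2.91 ± 0.26, adjusted p = 9.74e-04), Apob from 187, 133 and 106 to 760, 679 and 777, and Apoc3 from 62.7, 72.4 and 46.4 to 347, 397 and 446. Apoa1 went from 5160, 3989 and 3170 FPKM to 12056, 9704 and 16222 (adjusted p = 0.0104, or 0.055 without TAI mouse 1). Fabp2, the intestinal fatty acid binding protein and the most abundant nuclear-encoded gene, stood at 11125, 9034 and 6932 FPKM against 19894, 13342 and 26628, which did not pass at the deposited scaling (adjusted p = 0.0593) and did with medians equal (0.0462). Plin2, the coat of lipid droplets, fell from 34.2, 27.4 and 29.1 FPKM to 11.9, 17.8 and 14.1. Genes of fatty acid oxidation stayed near the median of all genes (log2 fold change -0.22 against -0.24). Of 22 tested, 3 rose (13.6%, against 9.87% of all genes) and 7 were lower (31.8%, against 27.4%, and 5 in both scalings). Among them, the carnitine palmitoyltransferases Cpt1a and Cpt2, which bring fatty acids into mitochondria, fell 2.71-fold and 2.5-fold in mean FPKM. Vnn1, a pantetheinase controlled by PPAR-alpha, rose from 107, 62.9 and 68.5 FPKM to 232, 223 and 206.

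**Figure D3:**
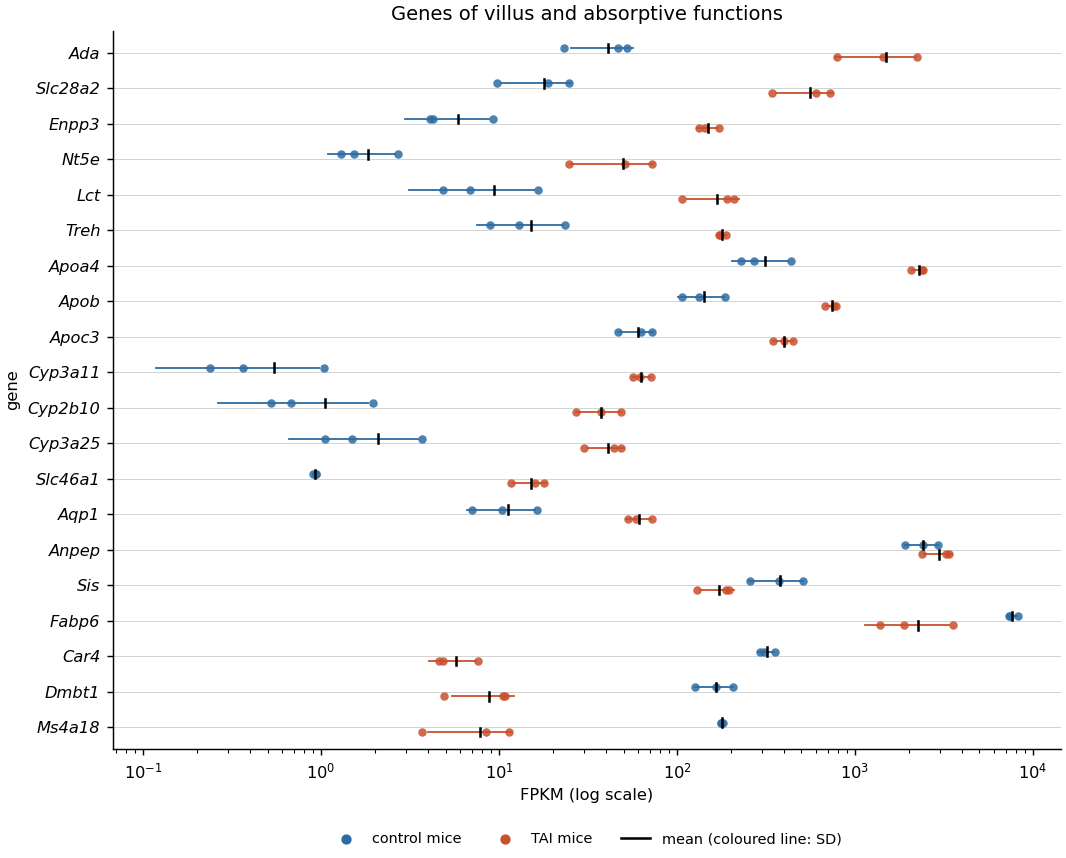
FPKM of single mice on a log axis for 20 genes of villus and absorptive functions, control mice in blue and TAI mice in red, with the mean as a black bar and the SD as a coloured line. Genes from Ada to Aqp1 lie to the right in the TAI mice, Anpep overlaps between the groups (1909 to 2922 against 2364 to 3350 FPKM), and Sis to Ms4a18 lie to the left.

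Genes of xenobiotic metabolism moved in both directions. Of 37 tested genes 17 rose and 8 were lower (4 without TAI mouse 1, and 3 in both scalings), with a median log2 fold change of 0.46 (0.71 relative to all genes). Besides Cyp3a11, the cytochromes Cyp2b10 (0.681, 1.96 and 0.52 FPKM against 37.4, 27.2 and 48.2) and Cyp3a25 (1.49, 3.69 and 1.05 against 44.5, 48.3 and 30) rose, and control mouse 2 had the highest control level in all 3 genes. All 3 genes that fell were glutathione transferases, although Gstm6 of that family, named after its values were seen, was among those that rose. Gsta1 went from 197, 230 and 133 FPKM to 25.3, 23.1 and 29.3 (-2.77 ± 0.22, adjusted p = 8.00e-04) and Gsta2 from 9.14, 11.6 and 4.96 to 1.14, 0.887 and 1.21, beside Gstm3. Members of these families are close copies of each other, and reads of near-identical stretches may be split between them.

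The direction of cholesterol synthesis genes depended on the scaling. Of 23 tested 9 were lower and 2 higher at the deposited scaling, and 1 was lower and 3 higher with medians equal. The 9 became 2 without control mouse 2 or TAI mouse 1, 3 without control mouse 3 and 5 without control mouse 1, and TAI mouse 3 had the lowest level of the 6 mice in 19 of the 23. Mvk, mevalonate kinase, fell from 8.8, 10.7 and 9.44 FPKM to 4.97, 5.07 and 2.52 (adjusted p = 0.0127).

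Among 24 tested genes of ion, water and mineral transport 7 rose and 3 were lower (2 in both scalings). Slc46a1, the proton-coupled folate transporter, had 0.934, 0.9 and 0.938 FPKM in the control mice and 15.9, 17.9 and 11.7 in the TAI mice (3.05 ± 0.17, adjusted p = 4.26e-04). This gene reached the level tested through the TAI mice alone, so its direction is tied to the filter. The water channel Aqp1 rose from 7.05, 16.3 and 10.4 FPKM to 53, 58.5 and 72.2, and Aqp7, which also passes glycerol, from 4.42, 1.72 and 2.66 to 15.6, 11 and 25. The chloride-bicarbonate exchanger Slc26a3 fell from 43.5, 33.6 and 32 FPKM to 13.9, 12.4 and 19.7 (adjusted p = 0.00575). Car4, which supplies bicarbonate at the same surface, thus fell together with it. Of 24 tested genes of junctions and keratins 7 rose and 5 were lower (2 in both scalings). Without TAI mouse 1 the counts were 2 and 1, and the 7 became 3 without control mouse 3 and 2 without TAI mouse 2, while the 5 became 2 without control mouse 1 or 3, 1 without control mouse 2 and 3 without TAI mouse 3. The sealing claudins Cldn4 (55.5, 35.1 and 45.3 FPKM against 96.5, 101 and 106) and Cldn7 (332, 323 and 300 against 545, 513 and 526) rose. The pore-forming Cldn2, a crypt claudin, fell from 47.8, 54.5 and 54.1 FPKM to 18.7, 32.1 and 11 (adjusted p = 0.0179, or up to 0.062 without control mice 2 or 3 or TAI mouse 1), and Krt19 from 668, 765 and 754 to 227, 302 and 105.

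Transcription factors of the enterocyte moved in both directions. Of 24 tested 4 rose and 7 were lower, of which 2 were so in both scalings (4 lower without control mouse 2, TAI mouse 1 or TAI mouse 3). The shares were 16.7% higher and 29.2% lower, against 9.87% and 27.4% over all genes. Hnf4a, the master regulator of enterocyte genes, stood at 218, 194 and 171 FPKM against 235, 199 and 202 (adjusted p = 0.524), and Cdx2, which sets intestinal identity, was lower at the deposited scaling only (adjusted p = 0.0114, or 0.247 with medians equal and 0.057 without TAI mouse 1). Prdm1 (Blimp-1), which represses adult enterocyte genes in the suckling gut, rose from 5.44, 3.98 and 4.07 FPKM to 17.4, 13.1 and 15.6 (1.58 ± 0.16, adjusted p = 0.0014). Elf3, an epithelial ETS factor, rose from 113, 147 and 106 FPKM to 241, 231 and 236, and Gata6 from 8.05, 6.77 and 6.08 to 15.4, 12.8 and 17.8. The nuclear receptors Nr5a2 (LRH-1) and Nr1h4 (FXR, the bile acid receptor) fell, Nr5a2 from 4.76, 7.45 and 6.1 FPKM to 1.18, 1.21 and 0.836 and Nr1h4 from 50.7, 41.7 and 49.9 to 24.6, 21.3 and 19.2.

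Some genes whose level depends on the position along the gut were called. Of 9 tested 3 fell and 1 rose, 33.3% and 11.1% against 27.4% lower and 9.87% higher over all genes (5 and 0 with the replicate block). Fabp6, the bile acid binding protein of the distal small intestine, was among the most abundant genes of the control mice at 7415, 8177 and 7326 FPKM and stood at 1372, 1874 and 3529 in the TAI mice (-1.87 ± 0.37, adjusted p = 0.00969, or 0.05 without TAI mouse 1). Bmp3 went from 4.71, 4.86 and 6.85 FPKM to 0.844, 0.672 and 0.526, and Osr2 from 13.1, 20 and 13 to 5.67, 4.61 and 5.42. The gene that rose was Hoxb6, from 1.88, 1.3 and 1.41 FPKM to 2.29, 2.44 and 2.57 (adjusted p = 0.0454). Its call was lost with the replicate block and without control mouse 2 or 3 or any TAI mouse. The ileal bile acid transporter Slc10a2, at 138, 64.9 and 110 FPKM against 75.5, 57.2 and 48.1, was not called (adjusted p = 0.0908, or 0.045 with the replicate block), nor was the proximal factor Gata4, named after its values were seen, at 21.2, 22.6 and 16.9 against 15.2, 16.7 and 11.1 (adjusted p = 0.0823, or 0.0257 with the block). Lct, Cyp3a11 and Cyp2b10, which are higher in the proximal than in the distal small intestine, rose as given above. Where along the jejunum each piece was taken is not stated in the sources used here, and the part of position in the enterocyte, xenobiotic and regional results was not tested.

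Many genes of redox defence were lower. Of 27 tested antioxidant genes 16 were lower (8 in both scalings) and 2 rose, with a median log2 fold change of -0.72 (-0.48 relative to all genes). Nqo1, a quinone reductase that is a classic target of the oxidant sensor Nrf2, stood at 30, 28.7 and 28.4 FPKM in the control mice and at 5, 5.46 and 4.76 in the TAI mice (-2.31 ± 0.11, adjusted p = 4.26e-04). Gsr, glutathione reductase, stood at 247, 213 and 253 FPKM against 60.4, 60.7 and 63.2 (-1.93 ± 0.12, adjusted p = 5.22e-04), and the peroxiredoxin Prdx6 at 105, 118 and 104 against 26.2, 35.2 and 18.2 (-2.04 ± 0.23, adjusted p = 0.00175). The groups were far apart in these genes, and mice of a group were close in Nqo1 and Gsr. The genes that rose were Cat, catalase, from 17.9, 23.3 and 25.4 FPKM to 74.4, 73.3 and 70, and the metallothionein Mt1, from 14.8, 20.6 and 20.1 to 67.1, 73.2 and 47.3. Sod1 was lower at the deposited scaling only (adjusted p = 0.0108, or 0.109 with medians equal and 0.052 without TAI mouse 1), and Gpx2, at 551, 337 and 376 FPKM against 301, 345 and 353, was not called and had log2 fold changes of -0.31 and, with medians equal, 0.04.

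Most chaperones and stress genes of the endoplasmic reticulum fell. Of 20 tested 17 were lower (15 in both scalings) and none was higher, with a median log2 fold change of -1.65 (-1.41 relative to all genes), and the list went from 0.701%, 0.963% and 0.637% of the summed FPKM in the control mice to 0.257%, 0.285% and 0.248% in the TAI mice. Hspa5 (BiP), the main chaperone of this compartment, stood at 306, 513 and 258 FPKM against 100, 123 and 85.9 (-1.74 ± 0.28, adjusted p = 0.00474). Creld2, a folding factor induced by the same stress, stood at 126, 170 and 101 FPKM against 20.3, 24.1 and 20.5 (-2.53 ± 0.20, adjusted p = 8.00e-04). Chac1, a target of the amino acid response factor Atf4, stood at 8.72, 5.5 and 6 FPKM against 0.499, 0.6 and 1.17, and Ddit3 (Chop) of the same pathway at 24.9, 35.7 and 19 against 9.1, 9.14 and 11.2. Control mouse 2 had the highest level of Hspa5, Creld2 and Ddit3. In the promoter windows described above, the endoplasmic reticulum stress element (CCAAT, 9 bases of any kind, then CCACG, on either strand), bound by factors of the unfolded protein response, was present for 6 of the 19 genes with a promoter in the table (31.6%), against 0.155% of the tested genes and none of the mitosis or replication genes. All 6 genes are among those called lower, but so were 16 of the 19 genes with a promoter. Only 3 were tested and not called, too few to tell whether the element marks the fall or only the list. The 120 bases before the start site of 3 of them, chosen after the matches were known, are shown with the element's fixed letters in capitals, on the strand of the gene.
Hspa5, chr2:34771970-34772089, plus strand: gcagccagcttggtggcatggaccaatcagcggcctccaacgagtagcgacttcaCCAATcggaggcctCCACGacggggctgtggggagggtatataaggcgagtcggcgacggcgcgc
Hsp90b1, chr10:86705445-86705564, minus strand: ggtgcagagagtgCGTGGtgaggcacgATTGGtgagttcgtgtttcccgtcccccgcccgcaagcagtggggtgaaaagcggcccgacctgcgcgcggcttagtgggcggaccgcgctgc
Pdia6, chr12:17266469-17266588, plus strand: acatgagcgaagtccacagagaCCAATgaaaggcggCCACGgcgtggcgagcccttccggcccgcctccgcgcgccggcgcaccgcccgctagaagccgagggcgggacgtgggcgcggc
Hsp90b1, another chaperone of the compartment (271, 360 and 245 FPKM against 74.3, 80.6 and 73.5), and the disulphide isomerase Pdia6 (74.4, 108 and 79 against 15.7, 20.6 and 16.7) fell 3.84-fold and 4.94-fold in mean FPKM.

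Most ribosomal protein genes fell. Of 77 tested genes of cytoplasmic ribosomal proteins 74 were lower (64 in both scalings) and none was higher, with a median log2 fold change of -1.20 (-0.96 relative to all genes). Without TAI mouse 1 the count was 28 and without control mouse 2 it was 46. Rps2 stood at 320, 596 and 553 FPKM in the control mice and at 111, 149 and 120 in the TAI mice (-1.90 ± 0.26, adjusted p = 0.00316), and Rpsa at 165, 268 and 323 against 66.5, 85.1 and 91.1 (-1.59 ± 0.26, adjusted p = 0.00558). Ribosomal protein genes have many processed pseudogenes, which may share reads with them. Of 78 tested nuclear genes of oxidative phosphorylation 73 were lower and none was higher, with a median of -0.87, but 34 remained lower with medians equal. Ndufa10 of complex I stood at 35.6, 49.1 and 38.6 FPKM against 11.2, 14.1 and 12.5, and Ndufc2 of the same complex at 124, 153 and 132 against 44.5, 49 and 40.6. The genes that the mitochondrion itself encodes for the same complexes did not share this direction: of 13 tested 6 rose and none was lower, with a median of 0.99. mt-Nd5 rose from 848, 594 and 840 FPKM to 1901, 1922 and 1612 (1.27 ± 0.21, adjusted p = 0.00555) and mt-Cytb from 3099, 2551 and 2815 to 6374, 7029 and 6005 (adjusted p = 0.00832, or 0.053 without TAI mouse 1). The mitochondrial chromosome held 8.12%, 6.81% and 7.25% of the summed FPKM in the control mice and 12.3%, 13.2% and 11.2% in the TAI mice, while the ribosomal list went from 2.58%, 3.98% and 4.98% to 1.34%, 1.72% and 1.7%. RNA integrity of the samples is not given in the sources used here.

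**Figure D4:**
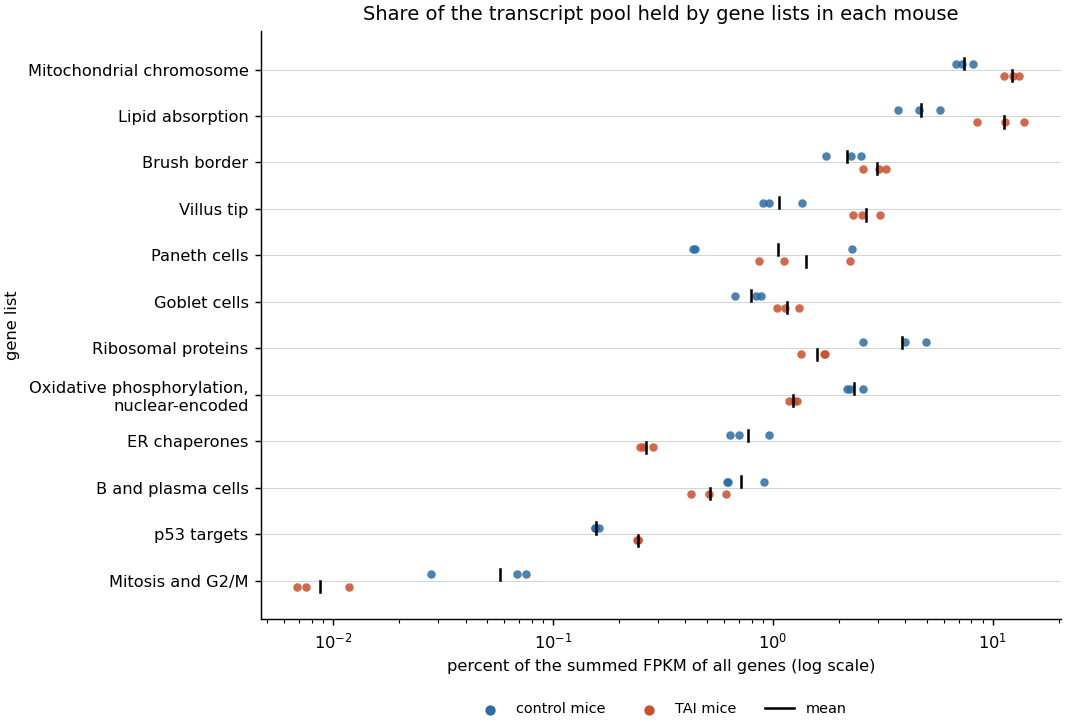
Percent of the summed FPKM of all genes held by 12 gene lists in each mouse, on a log axis, with control mice in blue, TAI mice in red and the mean as a black bar. Lists of the villus and the mitochondrial chromosome lie to the right in the TAI mice, ribosomal proteins, nuclear-encoded oxidative phosphorylation, endoplasmic reticulum chaperones and mitosis to the left, and Paneth cells overlap, with mouse 2 of each group at 2.29% and 2.25%.

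Interferon-stimulated genes were abundant in both groups and moved little as a list. Of 34 tested 4 rose and 7 were lower (3 in both scalings). The 4 became 7 without TAI mouse 3, 1 without control mouse 2, TAI mouse 1 or TAI mouse 2, and 2 without control mouse 3 or with the replicate block, and the 7 became 4 without control mouse 1 or TAI mouse 1. The list had a median log2 fold change of -0.37 (-0.13 relative to all genes), and TAI mouse 3 had the lowest level of the 6 mice in 24 of the 34. Isg15 stood at 900, 590 and 768 FPKM against 606, 607 and 319 and was not called (adjusted p = 0.158). Single members departed from the list. Bst2 (tetherin), which holds budding viruses at the cell surface, fell from 318, 340 and 354 FPKM to 75.4, 107 and 65.7 (-2.04 ± 0.19, adjusted p = 0.00119), and Ifi44 from 69.7, 63.1 and 52.1 to 17.1, 24.3 and 7.99. Ifit1, which binds viral RNA, stood at 232, 130 and 185 FPKM against 552, 524 and 266 (adjusted p = 0.0264, or up to 0.096 without control mice 2 or 3 or TAI mice 1 or 2). Of 23 genes of the interferon-gamma response and MHC class II, all tested, 3 rose (13%, against 9.87% of all genes). Only 1 was lower, at the deposited scaling only (4.35%, against 27.4%). The transcription factor Irf1 rose from 40.6, 34.1 and 38.7 FPKM to 76.9, 84.1 and 67.1 (adjusted p = 0.00306). Of 15 genes of MHC class I processing 2 rose and 5 were lower (3 with the replicate block or without control mouse 3 or TAI mouse 3, 2 without control mouse 2, 1 without TAI mouse 1, and 1 in both scalings, the immunoproteasome subunit Psmb9, from 36.1, 33.8 and 45.1 FPKM to 16.4, 20.7 and 15.1). The shares of the class I list, 13.3% higher and 33.3% lower, were near those over all genes.

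Chemokines changed in both directions. Of 19 tested cytokines and chemokines 5 rose (2 without control mouse 2, TAI mouse 1 or TAI mouse 2) and 2 fell (4 without control mouse 2). The monocyte-attracting Ccl2 rose from 1.31, 1.79 and 1.57 FPKM to 11.4, 19.6 and 6.79 (2.30 ± 0.33, adjusted p = 0.0037) and Ccl7 from 1.29, 2.26 and 1.73 to 9.69, 15.1 and 8.96 (2.13 ± 0.23, adjusted p = 0.00152). Cxcl10, which draws activated T cells, stood at 30.6, 13.8 and 32 FPKM against 118, 171 and 50.6 (adjusted p = 0.0188, or up to 0.069 without control mouse 2 or TAI mice 1 or 2). The epithelial homing chemokines fell, Ccl25 from 89.5, 108 and 75.3 FPKM to 27.7, 32.8 and 35.6 and Ccl28 from 2.61, 3.82 and 4.33 to 0.506, 0.976 and 0.588. Il1b, a first cytokine of inflammation, was low in both groups at 1.15, 2.28 and 1.97 FPKM against 2.79, 5.25 and 2.82 (adjusted p = 0.0699, or 0.0267 with the replicate block). Among 18 tested genes of epithelial defence 4 rose, among them Tifa, an adaptor that senses bacterial sugars, from 41.2, 24.8 and 36.8 FPKM to 180, 201 and 113, and Duoxa2, needed for hydrogen peroxide production at the surface, from 25.6, 13.3 and 31.5 to 125, 88.5 and 83. The 1 fall was Lypd8. The lectin Reg3g spread widely in both groups, at 4090, 1390 and 2307 FPKM against 1405, 2172 and 1040 (adjusted p = 0.262).

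Markers of immune cells were low or uneven, and few changed. Of 15 tested T cell and intraepithelial lymphocyte genes 2 were lower (1 in both scalings) and none rose, but 9 were lower with the replicate block, and Cd8a stood at 2.47, 3.24 and 5.92 FPKM against 2.39, 2.47 and 2.31 (adjusted p = 0.189). None of 16 tested B and plasma cell genes was called (3 were lower with the replicate block), although the median log2 fold change was -1.28. Ms4a1 (CD20) is an example: it stood at 4.51, 0.137 and 29.9 FPKM in the control mice and at 0.0566, 0.139 and 5.5 in the TAI mice, so that mouse 3 of each group carried most of the signal (adjusted p = 0.353). Jchain of plasma cells stood at 179, 154 and 144 FPKM against 116, 153 and 87 (adjusted p = 0.145). Of 15 tested macrophage and dendritic cell genes 4 were lower (26.7%, against 27.4% of all genes, and 3 in both scalings). Ccr2, the receptor for Ccl2 and Ccl7, fell from 1.75, 2.35 and 1.26 FPKM to 0.181, 0.391 and 0.349 (adjusted p = 0.00576), Ly6c2, which marks recruited monocytes, from 9.47, 5.91 and 12.3 to 1.09, 2.53 and 1.76 (adjusted p = 0.00466), and Cd68 from 8.79, 10.6 and 9.93 to 3.71, 5.13 and 4.97. Ccr2 reached the level tested through the control mice alone, so its direction is tied to the filter. No conclusion on the ligands and their receptor is drawn from it. Of 16 granulocyte and mast cell genes only 3 reached the level tested and none was called. Ly6g stood at 13.2, 1.2 and 6.25 FPKM against 3.84, 2.28 and 0.64 (adjusted p = 0.272).

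Few genes of the wall and the stroma were called at the deposited scaling, and more with medians equal, where 8 of 15 tested fibroblast and matrix genes, 6 of 14 smooth muscle genes, 8 of 15 endothelial genes and 5 of 11 genes of enteric neurons and glia were higher. At the deposited scaling, of 15 tested fibroblast and matrix genes 3 rose (5 with the replicate block, none without TAI mouse 1 or 2), among them Col4a2 of the basement membrane, from 8.5, 12.3 and 10.9 FPKM to 18.1, 22.7 and 15.2 (adjusted p = 0.0215, or up to 0.072 without TAI mice 1 or 2). Of 14 smooth muscle genes 3 rose (none without control mouse 1 or 2 or TAI mouse 1), among them Myh11, smooth muscle myosin, from 61.6, 60.7 and 71.3 FPKM to 97.2, 85 and 134 (adjusted p = 0.0293, or up to 0.082 without control mice 1 or 2 or TAI mouse 1). The smooth muscle list held 0.234%, 0.236% and 0.291% of the summed FPKM in the control mice and 0.313%, 0.26% and 0.383% in the TAI mice (exact permutation test, p = 0.20), so the shares of the groups overlapped. Of 15 tested endothelial genes 1 rose (3 with the replicate block, 5 without control mouse 2) and 1 fell, the latter Lyve1 of lymphatic vessels, from 23, 16.1 and 10.6 FPKM to 5.34, 6.25 and 4.88 (adjusted p = 0.00866). Of 11 tested genes of enteric neurons and glia 3 rose. Ret, the receptor that enteric neurons need for GDNF, rose from 1.12, 1.06 and 1.32 FPKM to 7.92, 5 and 7.99 (1.85 ± 0.19, adjusted p = 0.00139), and Gfap, the filament of reactive glia, from 0.491, 0.443 and 0.534 to 2.37, 1.72 and 2.01 (1.02 ± 0.14, adjusted p = 0.00294), while the neuronal marker Elavl4 was not called (adjusted p = 0.171). Gfap reached the level tested through the TAI mice alone, so its direction is tied to the filter. TAI mouse 3 held more fat than the others by the adipocyte hormone Adipoq, at 58.8 FPKM against 3.88 to 11.6 in the other 5 mice, and more skeletal muscle actin, Acta1, at 15.1 FPKM against 0.375 to 4.64. The part of these tissues in other results was not tested.

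Genes of stress hormones, fasting and immediate early response rose in part. Of 11 tested glucocorticoid and fasting response genes 4 rose (2 without TAI mouse 1 or 3) and 1 was lower at the deposited scaling only, with a median log2 fold change of 0.75 (1.00 relative to all genes). Zbtb16, a sensitive glucocorticoid target, rose from 0.795, 0.139 and 0.492 FPKM to 3.94, 2.32 and 3.61 (1.54 ± 0.23, adjusted p = 0.00402), and Irs2, an insulin signalling adaptor that rises in fasting, from 2.21, 3.22 and 3.43 to 7.7, 8.47 and 8.19 (1.22 ± 0.16, adjusted p = 0.00262). Zbtb16 reached the level tested through the TAI mice alone, so its direction is tied to the filter. Sgk1, a kinase induced by glucocorticoids, stood at 71.3, 21.2 and 52.4 FPKM against 165, 111 and 247 (adjusted p = 0.0198, or up to 0.065 without TAI mice 1 or 3), whereas Fkbp5 was not called (adjusted p = 0.121). Food intake and the hour of collection are not given in the sources used here. Of 12 tested clock genes 3 rose and 1 was lower at the deposited scaling only. Npas2 rose from 7.06, 7.78 and 6.7 FPKM to 15.4, 12.7 and 13.3 (adjusted p = 0.00393), while Arntl, the partner of Clock, was not called (adjusted p = 0.38). Of 16 tested immediate early genes 7 rose (4 without control mouse 2 and 3 without TAI mouse 1) and none was lower, with Fos going from 44.4, 50.1 and 37.9 FPKM to 91, 118 and 88.8 (1.15 ± 0.16, adjusted p = 0.00363).

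**Figure D5:**
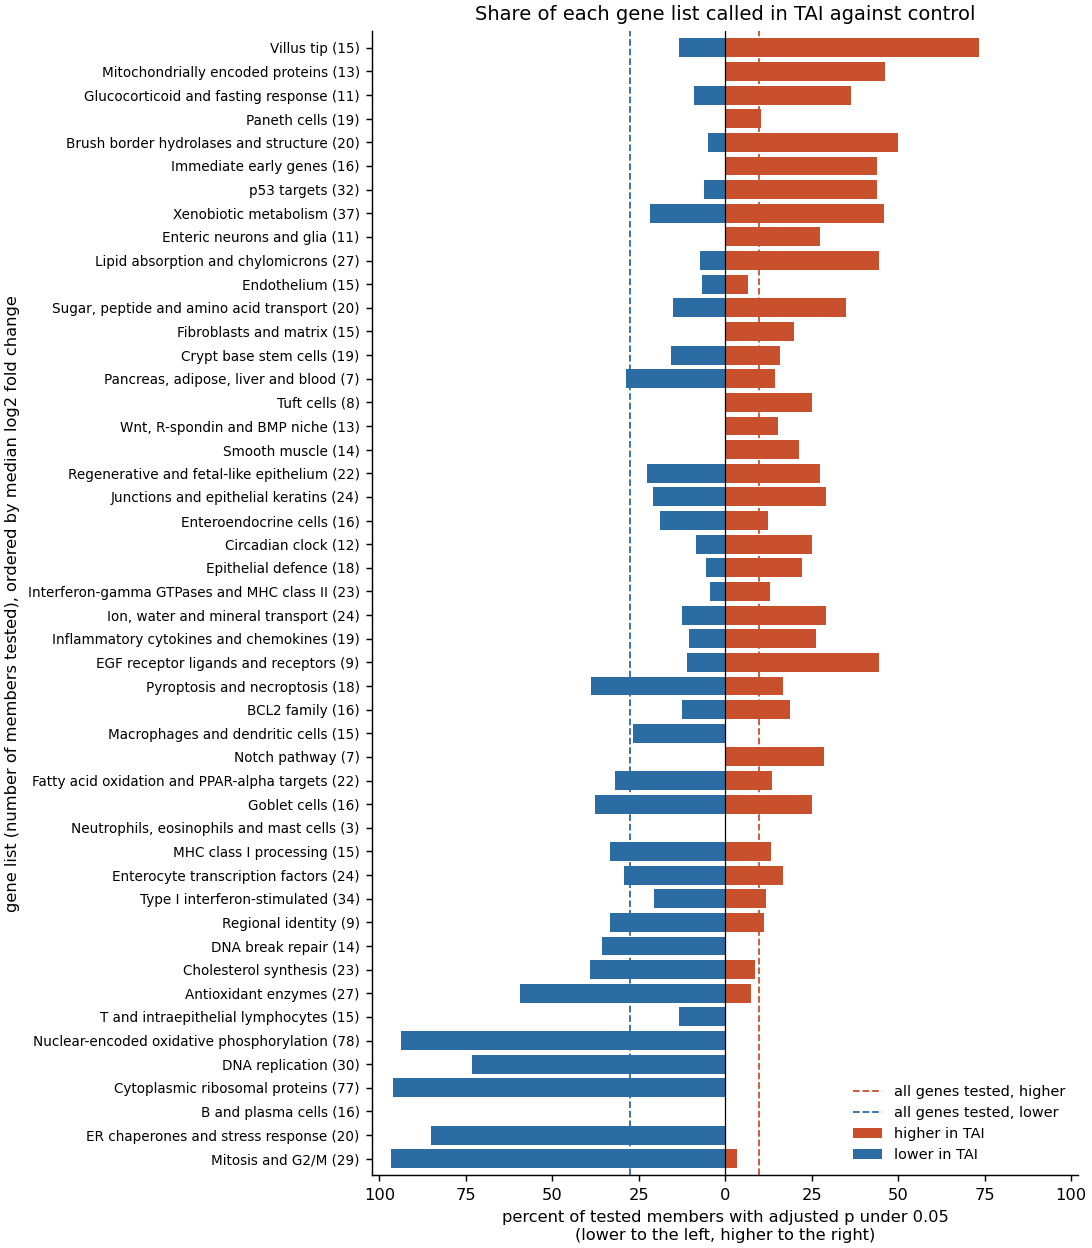
Percent of the tested members of each of the 48 gene lists that were lower (blue, to the left) or higher (red, to the right) in the TAI group at the deposited scaling, ordered by the median log2 fold change, with the number tested in brackets. The dashed lines mark the shares over all tested genes, 27.4% lower and 9.87% higher. Mitosis (96.6%), ribosomal proteins (96.1%) and nuclear-encoded oxidative phosphorylation (93.6%) extend furthest to the left, and the villus tip list extends furthest to the right.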

How the data were processed

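RNA-seq of jejunal tissue was analysed for 3 control and 3 TAI mice, 6 of the 9 columns of the deposited gene table. The authors extracted total RNA with TRIzol, sequenced mRNA libraries, and deposited FPKM values per gene. The submitters' processing notes name FastQC, Trimmomatic, STAR, featureCounts and DESeq2 with mm10/GRCm38, without versions, and the strand setting is not given in the sources used here. Whole reads were recovered from the FPKM steps, with a tolerance of 0.001, for 100% of the genes above 0 in any of the 6 mice. Exon lengths set a common factor for 1022 of these genes and gave the reads of 3 others directly. The depths were taken from these reads. Coordinates are those of GENCODE M21.

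Genes that reached 1 FPKM in 3 or more of the 6 mice were tested on log2(FPKM + 1) with limma 3.58.1 in R 4.3.3 (trended empirical Bayes, two-sided), with Benjamini-Hochberg adjustment over all 12792 genes and a threshold of 0.05. A pseudocount of 1 understates the change of low genes. The fit was tested on simulated data. Shares of summed FPKM were compared by a two-sided exact permutation test, whose smallest p for 3 against 3 mice is 0.10. Intervals for single values were not computed, since precision was taken from the spread between mice. Neither the labels nor the methods say that the mice came from separate litters or days, so the p-values measure only the spread between these samples. Control and TAI mice with the same number deviated together from their group means (correlations 0.278, 0.248 and 0.31), and the sources used here do not say what a shared number stands for. The fit without this pairing was the main one, and the fit with a replicate block was an alternative.

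Named genes were the 15 largest rises and the 15 largest falls called under both scalings without overlap between mice, the leading genes of each list, up to 3 called members per list and direction, and the 10 most abundant genes. Genes outside this rule are marked in the text, and not every gene that the rule names is reported here. The comparison, its gene lists and the rule were chosen with earlier results of these data known. Alternatives covered the pseudocount, the filter, the scaling, the variance model, the replicate block, limma voom on the recovered reads, and each mouse left out.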

Additional observations from a re-analysis of the deposited data

How the results depend on the processing

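Counts of genes depended on the scaling and on single mice. Against 1263 higher and 3502 lower genes as deposited, setting library medians equal gave 2233 and 1852, quantile normalization 2158 and 2314, and voom with median ratio library sizes 2244 and 2111. The median log2 fold change of all genes, -0.24 as deposited, was 0.03, -0.02 and -0.01 under these, and -0.02 without a filter, which adds genes near 0. Leaving out 1 mouse also moved the counts, to 669 to 1126 higher and 1506 to 3997 lower genes. The median stayed between -0.30 and -0.17 in these fits. The replicate block gave 1298 and 3765, ended no call of a named gene other than Hoxb6 and added those of Slc10a2, Gata4 and Il1b. Of 175 called named genes, a count that leaves out Hoxb6, 146 kept their call under all 15 alternatives that could test them. Without TAI mouse 1, 28 lost it, and without the filter, 21. Clu, not called and at 0.26, ranged from -0.90 without control mouse 2 to 1.52 without control mouse 3 and was also negative without TAI mouse 3 (-0.67). Gpx2, not called, went from -0.31 to 0.04 with medians equal, and the cause was not tested. The more frequent direction of calls was opposite in 7 of the 48 lists with medians equal (goblet cells, enteroendocrine cells, cholesterol synthesis, enterocyte transcription factors, type I interferon-stimulated, MHC class I processing, pancreas, adipose, liver and blood) and in up to 4 without 1 mouse. With 3 mice per group, small changes are hard to separate from the spread.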
